A study of Arabidopsis thaliana with 6 samples.

Results

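The 31 genes described here make or control tetrapyrroles in Arabidopsis thaliana: 10 genes of the common pathway, 14 of the chlorophyll branch, 4 of the haem and bilin branch, and 3 regulators (FLU, GLK1 and GLK2). They were picked by locus as the named enzymes and regulators of the pathway, and all 31 were found among the 33602 gene models of the count tables. All 31 passed the filter on low counts. RNA was read from young rosette leaves at Boyes stage 1.13, from plants grown on soil without treatment at 18 to 21 °C and up to 90 µE of light. Total RNA was depleted of ribosomal RNA and sequenced on an Ion Proton. The 3 groups of 2 libraries are the white leaf border of the T-DNA line salk_139995, 1 mutant line of FLV/DOT4 (labelled FLV border and called the white border here), the green leaf border of wild-type Col-0 plants (WT border, the green border), and the centre of Col-0 leaves (WT centre). Nothing in the labels says that the 2 libraries of a group came from separate plants, so p-values reflect the spread among these libraries and nothing wider. The mutant was sampled at the border alone.

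Tetrapyrrole synthesis in plants starts in the plastid from glutamate carried on a transfer RNA. Glutamyl-tRNA reductase makes the step that sets the rate, and the common pathway ends at protoporphyrin IX. There magnesium chelatase leads into chlorophyll and ferrochelatase leads into haem and, through haem oxygenase, into the bilin of the phytochromes. The intermediates are phototoxic, and FLU holds back their synthesis in the dark. GLK1 and GLK2 are transcription factors known to activate genes of chlorophyll synthesis and light harvesting in leaves.

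The libraries held 20448315 to 33214552 counts. Levels are normalised counts in CPM, counts per 1e6 of a library size scaled by TMM. The TMM factors separated by group: 1.71 and 1.73 in the white border, 1.22 and 1.14 in the green border, and 0.551 and 0.439 in the centre. DOT4 (AT4G18750), the gene disrupted in the mutant line, had 502 and 616 counts in the libraries labelled FLV border against 18 and 52 in the green border and 5 and 6 in the centre. The libraries labelled FLV border thus had more DOT4 reads and not fewer, at 10.2 and 12.5 CPM against 0.412 to 1.81 in the wild type. The cause was not tested, and directions given for the white border rest on its label. Library 1 of the centre stood apart, with 70.9% of its reads mapped against 83.3 to 88.9% in the others, and with 17.1% of its counts in small nucleolar and spliceosomal RNAs against 2.16 to 9.92%. Residual ribosomal RNA was higher in both white libraries, at 142 and 149 counts per 1e6 against 0.331 to 9.26 in the 4 wild-type libraries, and its part in the differences between the borders was not tested. The 5 mesophyll markers checked (RBCS1A, RCA, CA1, LHCB1.3 and LHCA1) summed to 4839 and 10540 CPM in the white border, 21800 and 32110 in the green border, and 31530 and 109200 in the centre. In pieces of leaf, fewer cells of a type and less RNA per cell cannot be told apart.

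The promoters of 4 members are shown because these were the members with the largest difference between white and green border among those whose libraries did not overlap. Each runs from 250 bases before to 50 bases into the gene as annotated by RefSeq on TAIR10.1, 5′ to 3′ on the strand of the gene. Capitals mark matches, on either strand, to CACGTG (the G-box), CCAATC or GATAAG. GLK1 (AT2G20570, chr2:8855052-8855351, + strand), PORB (AT4G27440, chr4:13725296-13725595, + strand), GUN4 (AT3G59400, chr3:21949747-21950046, - strand) and CRD1 (AT3G56940, chr3:21076255-21076554, + strand) read as follows.
GLK1: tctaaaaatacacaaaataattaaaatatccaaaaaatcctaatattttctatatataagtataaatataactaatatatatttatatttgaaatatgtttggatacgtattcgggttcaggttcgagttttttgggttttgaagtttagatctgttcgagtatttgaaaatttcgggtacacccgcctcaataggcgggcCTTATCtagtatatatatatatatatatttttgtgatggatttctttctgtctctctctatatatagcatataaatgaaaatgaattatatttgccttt
PORB: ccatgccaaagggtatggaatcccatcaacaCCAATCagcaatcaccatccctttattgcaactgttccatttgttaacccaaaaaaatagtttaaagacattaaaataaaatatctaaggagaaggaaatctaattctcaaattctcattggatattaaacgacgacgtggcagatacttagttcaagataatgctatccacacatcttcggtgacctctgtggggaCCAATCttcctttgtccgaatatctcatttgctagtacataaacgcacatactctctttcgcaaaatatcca
GUN4: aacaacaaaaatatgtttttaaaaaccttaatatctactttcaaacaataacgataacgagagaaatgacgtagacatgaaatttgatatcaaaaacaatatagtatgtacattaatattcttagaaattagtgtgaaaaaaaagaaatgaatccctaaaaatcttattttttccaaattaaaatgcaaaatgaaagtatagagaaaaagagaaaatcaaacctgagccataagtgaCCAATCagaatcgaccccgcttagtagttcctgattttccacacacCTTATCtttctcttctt
CRD1: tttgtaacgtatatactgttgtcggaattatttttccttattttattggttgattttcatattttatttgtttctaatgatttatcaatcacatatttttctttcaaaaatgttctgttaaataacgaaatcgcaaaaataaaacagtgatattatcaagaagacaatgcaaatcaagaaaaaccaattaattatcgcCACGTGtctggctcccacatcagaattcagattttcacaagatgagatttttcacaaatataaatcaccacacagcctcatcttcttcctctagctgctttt

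The window of GLK1 holds 1 GATAAG match, that of PORB 2 CCAATC matches, that of GUN4 1 match to each of these, and that of CRD1 1 G-box, placed 52 bases before the start. Over all 31 members, the G-box was present in 4 windows (12.9%), against 7.68% of the 27443 windows of nuclear protein-coding genes. CCAATC was present in 6 (19.4% against 12.35%) and GATAAG in 7 (22.6% against 14.65%). The 19 matches lay in 15 members, and 0 of them overlapped another match. CAO, whose product makes chlorophyll b, held 2 of the 5 G-box matches. These counts describe letters in a window and do not show binding.

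**Figure D1:**
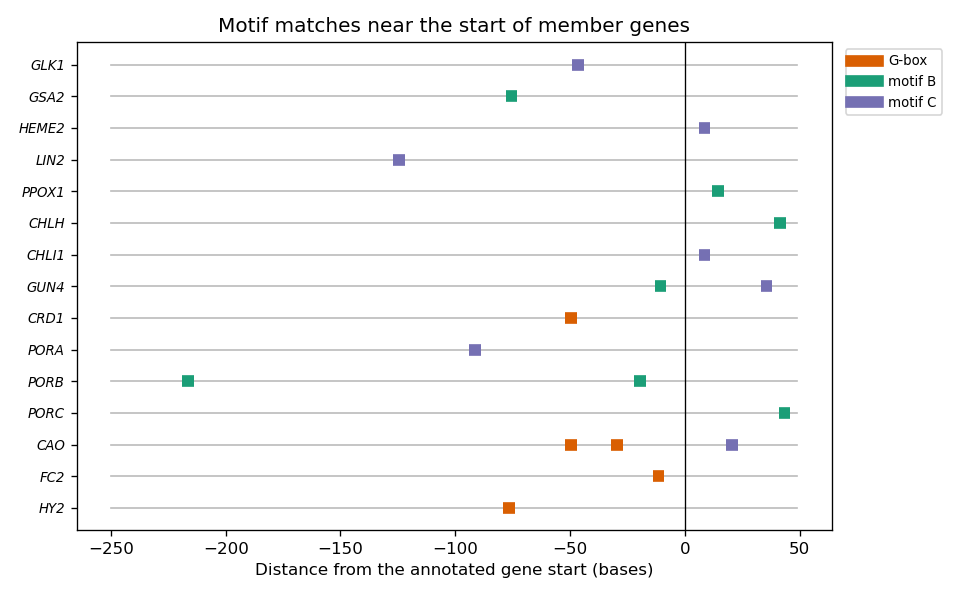
Positions of motif matches in the 15 member genes with at least 1, by distance in bases from the annotated gene start (grey lines, the windows searched). Orange marks the G-box, green motif B (CCAATC) and purple motif C (GATAAG); the match farthest from a start is the upstream one of PORB.

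The first comparison sets the white margin of the mutant line beside the green margin of the wild type. In the libraries labelled FLV border most of the pathway had lower levels: 28 of 31 members had a negative log2 fold change, with a median of -0.88, where all 21852 genes tested had a median of 0.02 and 48.4% had a negative one. Both white libraries lay under both green ones for 20 members, against 18.7% of all genes, and above them for 1, against 19.3%. By edgeR's quasi-likelihood test no single member passed an adjusted p of 0.05 (0 of 31, where 0.0549% of all genes were called higher and 0.00458% lower). At an unadjusted p under 0.05 there were 5 members lower and 0 higher, against 2.57% and 2.97% of all genes, and DESeq2 and limma-voom called 0 members as well. That count of 5 was 0 without library 1 of the white border, 3 without its library 2, 1 without library 2 of the green border and 9 without either centre library. With the library number as a block, edgeR gave 10 members at an unadjusted p under 0.05, beside 1313 of 21852 genes. In the fit of the 4 compared libraries alone the count was also 10, beside 2000 of 21249 genes. DESeq2 called 0.549% of all genes higher and 0.339% lower.

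The largest difference among the members that did not overlap was in GLK1. It had 39.4 and 40.8 CPM in the white border, 193 and 174 in the green border, and 90.0 and 529.9 in the centre. The border libraries were close within each group and far apart between them, while the 2 centre libraries lay on either side of the green border. The white border differed from the green border by a log2 fold change of -2.19 ± 0.76 (SE; edgeR adjusted p = 0.757, unadjusted 0.018). Its paralogue GLK2 had 24.5 and 53.8 CPM against 37.0 and 111 in the green border and 41.7 and 352 in the centre. Here the borders overlapped, and the log2 fold change was -0.92 ± 0.92 (edgeR adjusted p = 0.9999). Within a library, counts per kilobase of GLK1 were 1.35 and 0.636 times those of GLK2 in the white border, 4.39 and 1.32 times in the green border, and 1.81 and 1.26 times in the centre. FLU, the repressor of 5-aminolevulinate synthesis, had 29.5 and 42.2 CPM in the white border against 98.6 and 51.0 in the green border, both white libraries below both green ones.

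**Figure D2:**
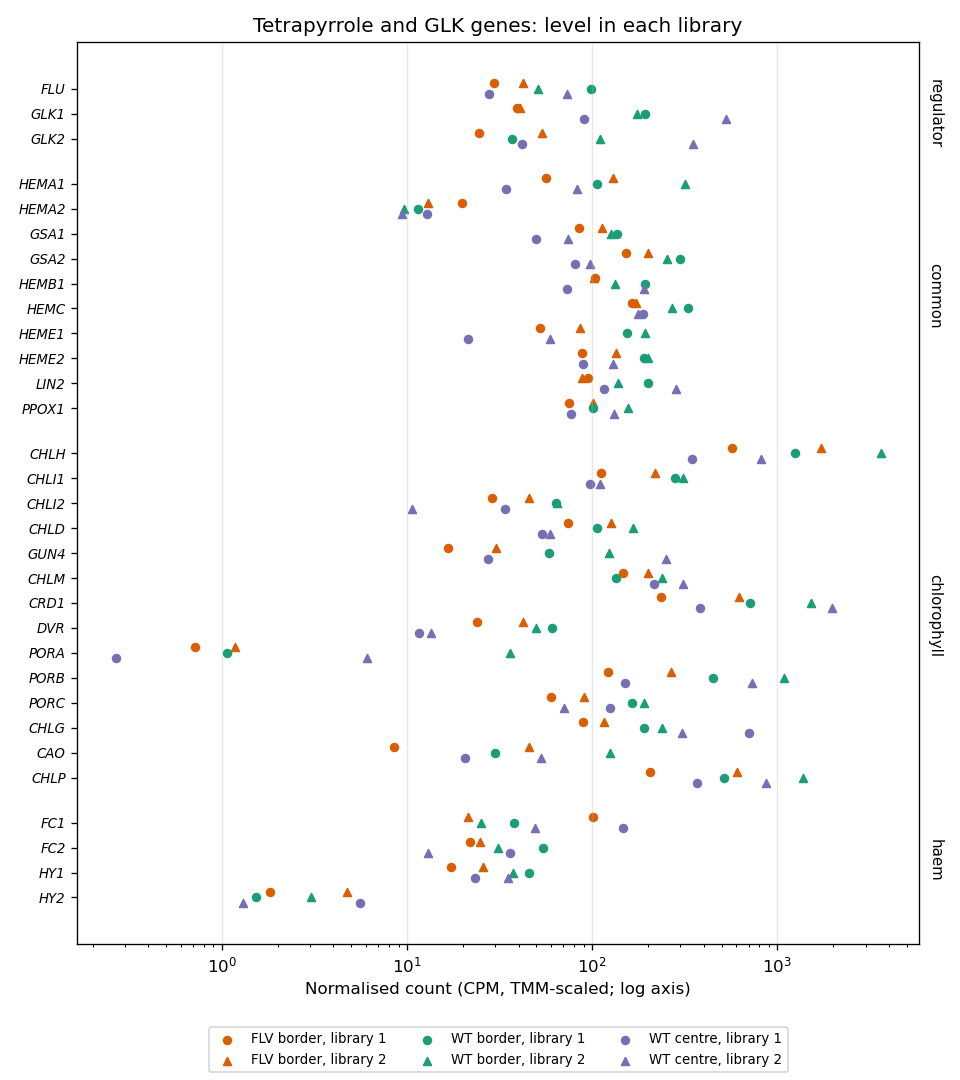
Level of each of the 31 members in each of the 6 libraries, in TMM-scaled CPM on a log axis, grouped by step. Colours are groups and shapes are library numbers; the orange FLV border points lie left of the green WT border points for 20 members, and PORA spans the widest range.

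In the common pathway 9 of 10 members had a negative log2 fold change, with a median of -0.73. For 8 of them both white libraries lay below both green ones, against 18.7% of all genes. The exception is at the first step, where the reductase has a pair of genes. HEMA1 (AT1G58290), the form tied to greening, had 56.5 and 129 CPM in the white border and 106 and 318 in the green border. HEMA2 (AT1G09940), the form known for roots and stress, had 19.8 and 13.0 CPM against 11.5 and 9.59. HEMA2 was thus the member that was higher in both white libraries, by a log2 fold change of 0.64 ± 0.44, and HEMA1 had -1.19 ± 0.71 with overlapping libraries (edgeR adjusted p = 0.9999 for both). Without library 2 of the green border HEMA1 had -0.20, and without library 2 of the white border -1.90. The ratio of HEMA1 to HEMA2 per kilobase was 2.89 and 10.1 in the white border, 9.32 and 33.7 in the green border, and 2.68 and 8.97 in the centre. White and green borders overlapped in this ratio. Between same-numbered libraries, HEMA1 and the ratio were lower in the white border, but the labels do not say that the number pairs libraries.

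The next enzymes on the common path lay lower in the white border. GSA2, one of the aminotransferases that make 5-aminolevulinate, had 153 and 201 CPM in the white border against 297 and 253 in the green border. HEMC, the porphobilinogen deaminase, had 164 and 172 against 329.9 and 269. Of the decarboxylase pair, HEME1 had 52.0 and 85.9 CPM against 154 and 194, the largest difference of the common steps at -1.33 ± 0.59 (edgeR adjusted p = 0.901, unadjusted 0.0498). HEME2 had 88.0 and 135 against 191 and 199. The other 4 genes also lay below both green border libraries, with log2 fold changes between -0.88 and -0.41. GSA1, the other aminotransferase gene, had 84.6 and 112 CPM against 136 and 126. HEMB1, which makes porphobilinogen, had 104 and 102 against 192 and 133. LIN2, the coproporphyrinogen oxidase, had 95.2 and 88.1 against 200.2 and 137, and PPOX1, which makes protoporphyrin IX, had 74.9 and 101 against 101 and 156. The white libraries of PPOX1 reached up to the lower green one, and those of LIN2 and HEMB1 lay clear of it.

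All 14 members of the chlorophyll branch had a negative log2 fold change, with a median of -1.15. Both white libraries lay below both green ones for 8 of them, against 18.7% of all genes. The median was -0.71 and -1.82 without library 1 or 2 of the white border and -0.77 without library 2 of the green border. Magnesium chelatase stands at the branch point. Its large subunit gene CHLH, also known as GUN5, had 571 and 1725 CPM in the white border, 1246 and 3619 in the green border, and 347 and 817 in the centre. The spread between libraries of a group was as wide as the gap between groups, with library 2 the higher in each group. Within each library number CHLH was lower in the white border than in the green border. The labels do not say that the number pairs libraries, and the share of all genes with this pattern was not computed. The log2 fold change of CHLH was -1.08 ± 0.84. It ran from -2.09 without library 2 of the white border to -0.13 without library 2 of the green border. The ATPase subunit gene CHLI1 had 111 and 218 CPM against 282 and 310.3 and did not overlap, and CHLI2 had 28.7 and 45.8 against 63.7 and 64.9. CHLD, the partner of CHLI in the motor of the chelatase, had 74.0 and 126 against 106 and 165 and overlapped, at -0.43 ± 0.49. GUN4, which binds the substrate and product of the chelatase and activates it, had 16.7 and 30.3 CPM in the white border against 58.8 and 123 in the green border, a log2 fold change of -1.95 ± 0.90 (edgeR adjusted p = 0.924).

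Beyond the chelatase the methyltransferase gene CHLM was the nearest to no difference of the branch, at -0.11 ± 0.52, with 146.1 and 200.03 CPM in the white border against 135 and 239. CRD1, a subunit of the cyclase that closes the isocyclic ring, had 236 and 619.6 CPM against 712 and 1515. The divinyl reductase gene DVR had 23.8 and 42.5 against 60.7 and 49.6. Both genes lay lower in each white library than in either green one. The light-dependent reductase follows, with a family of 3 genes. PORB had 121 and 266 CPM in the white border and 447 and 1092 in the green border, a log2 fold change of -1.99 ± 0.85 (edgeR adjusted p = 0.881, unadjusted 0.0447). PORC, the form of mature green tissue, had 60.2 and 90.4 CPM against 165 and 191, at -1.24 ± 0.51 (adjusted p = 0.867 with edgeR, unadjusted 0.0368).

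PORA, best known from dark-grown seedlings, had the largest fitted difference of all members, at -4.29 ± 1.55 (edgeR adjusted p = 0.774). It rests on 1 library: the levels were 0.714 and 1.17 CPM in the white border, 1.06 and 36.0 in the green border, and 0.267 and 6.04 in the centre. Library 2 of the green border, with 1037 counts against 37 in library 1, was alone in the high value, and without it the log2 fold change was -0.19. At the end of the branch, CHLG, the chlorophyll synthase, had 89.2 and 116 CPM in the white border against 191 and 238 in the green border without overlap. CAO had 8.49 and 45.6 against 29.7 and 124, and CHLP, which reduces the phytol tail, had 205 and 606 against 515 and 1376. Both of these overlapped, since library 2 of the white border lay above library 1 of the green border. Within each library number, both were lower in the white border, with the same limit as for CHLH on reading the numbers as pairs. Leaving out 1 library gave -3.18 to -0.15 for CAO and -2.20 to -0.36 for CHLP.

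The haem branch was mixed: its 4 members had log2 fold changes from -0.95 to 0.95, with a median of -0.18, which was -0.64 without either library of the white border. FC1 (AT5G26030), the ferrochelatase also found outside green tissue, had 100.5 and 21.3 CPM in the white border, 37.9 and 25.1 in the green border, and 146.5 and 49.2 in the centre. Its high value in the white border came from library 1 alone. The log2 fold change was 0.95 ± 0.77 (edgeR adjusted p = 0.9999) and -0.57 without that library. FC2 (AT2G30390), the ferrochelatase of photosynthetic tissue, had 21.8 and 24.6 CPM against 54.6 and 30.8 in the green border. HY1, the haem oxygenase of the phytochrome chromophore, had 17.2 and 25.7 against 45.4 and 37.5. Neither of the last pair overlapped, at -0.88 ± 0.56 and -0.95 ± 0.46. HY2, which makes phytochromobilin, overlapped, with 1.82 and 4.73 CPM against 1.52 and 3.02.

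**Figure D3:**
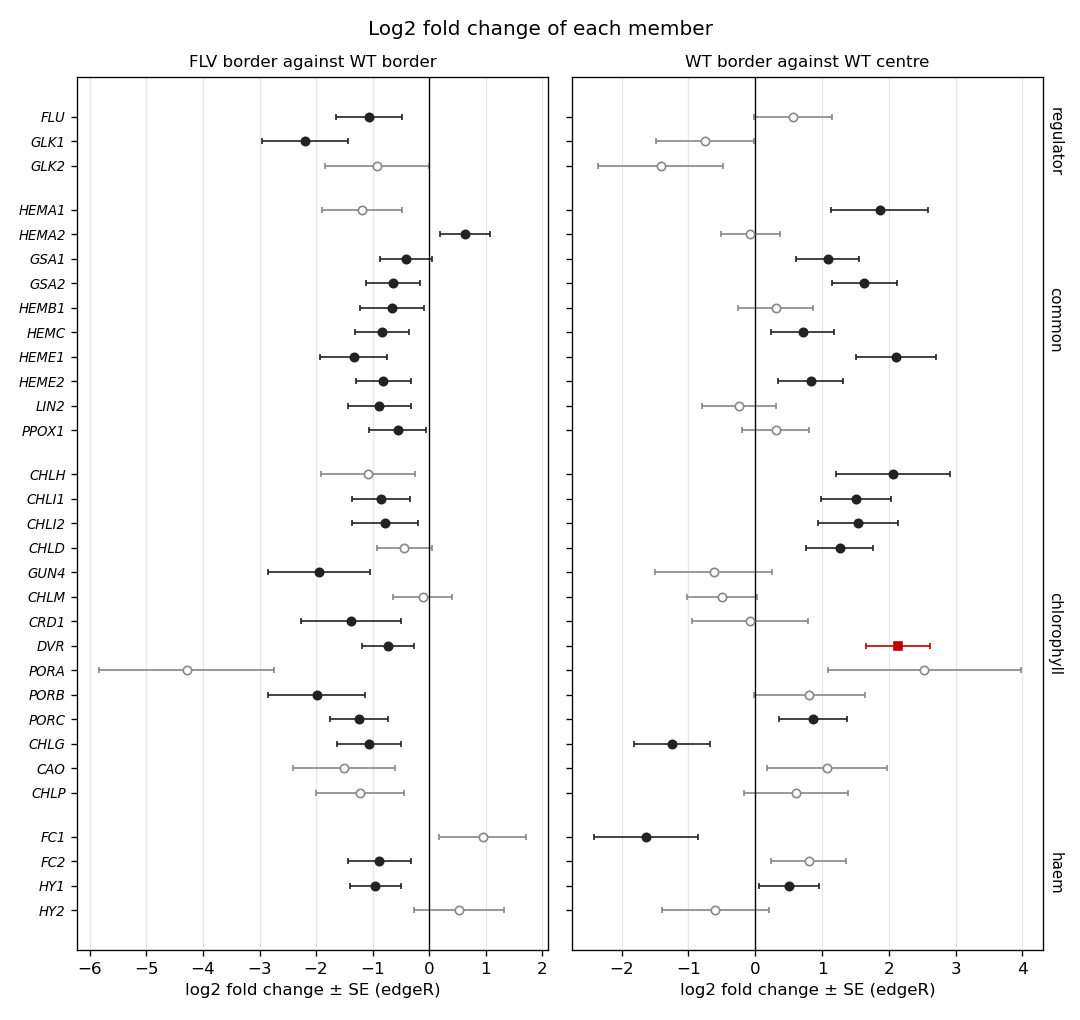
Log2 fold change of each member with its standard error from edgeR, for FLV border against WT border (left) and WT border against WT centre (right). Filled symbols are members whose libraries did not overlap between the groups, open grey ones overlapped, and the red square is DVR, the member that passed an adjusted p of 0.05; 28 of 31 points on the left lie below 0.

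The mesophyll markers were lower along with the pathway. All 5 had a negative log2 fold change, with a median of -1.81. For 4 of them both white libraries lay below both green ones, against 18.7% of all genes. CA1 had -2.09 ± 0.69 and RBCS1A -1.81 ± 0.77. EdgeR called 0 of the 5 and DESeq2 called 2 lower, where it called 0.339% of all genes lower. Their part in the differences of the members was not tested. The epidermis markers (ATML1, PDF1, FDH, CER1 and PDF2) summed to 463 and 310.0 CPM in the white border against 379 and 270.2 in the green border. Dividing cell markers summed to 21.04 and 35.7 against 45.2 and 16.4, xylem markers to 58.0 and 52.5 against 48.0 and 48.9, and phloem markers to 168 and 186 against 169 and 382. Of these sums that of xylem did not overlap between the borders. By gene, xylem markers had a median log2 fold change of 0.01, with 3 positive and 2 negative. Phloem markers had a median of -0.51, with all 4 negative. For 3 phloem markers both white libraries lay below both green ones, against 18.7% of all genes. Medians were 0.48 for epidermis and -0.12 for dividing cell markers, and edgeR called 0 in these lists. Guard cell markers summed to 14.5 and 22.5 against 11.2 and 24.3 CPM, and trichome markers to 40.1 and 30.0 against 39.9 and 32.8. These lists had medians of -0.67 and -0.38, with 0 called. At 0 counts in any library of these marker lists stood only GL1, in library 2 of the green border.

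Other genes of the pathway came from a list of 13, of which 11 were tested. Of those tested, 10 had a negative log2 fold change, some near 0, with a median of -0.35, and edgeR called 0. Both white libraries lay below both green ones for 5 of the 11, against 18.7% of all genes. The largest difference was in UPM1, the methyltransferase that leads into sirohaem, with 28.9 and 30.5 CPM in the white border against 93.9 and 82.8 in the green border (-1.57 ± 0.44, edgeR adjusted p = 0.538). SIRB, the ferrochelatase of sirohaem, had 5.96 and 5.08 against 12.1 and 11.1. The sirohaem pair thus did not overlap between the groups. Of 9 genes of chlorophyll breakdown 6 were negative with a median of -0.31 and 0 called. NYC1, a chlorophyll b reductase, had -1.07 ± 0.48. SGR2, a STAY-GREEN protein, had 1.19 ± 1.04, on only 14 and 4 counts in the white border and 3 and 2 in the green border. The 8 other regulators of greening had a median of -0.02 with 0 called. Among them HY5, which promotes greening in light, had 1.03 ± 0.85 and PIF3, which represses it in the dark, had -0.46 ± 0.51.

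The second comparison sets margin against middle within wild-type leaves. In the green margin, DVR (AT5G18660, chr5:6220710-6222300 in TAIR10.1, 1 exon) was higher, and it was the member that edgeR called: 60.7 and 49.6 CPM in the green border against 11.5 and 13.5 in the centre, with the white border between at 23.8 and 42.5. The log2 fold change was 2.14 ± 0.48 (edgeR adjusted p = 0.0417), and edgeR called 3.13% of all genes higher and 3.00% lower. For DVR the call was lost in the fit of the 4 libraries alone (adjusted p = 0.0652) and with an offset for gene length (0.0583), at log2 fold changes of 2.04 and 2.01. It was also lost when any single library other than library 2 of the centre was left out, with DVR at adjusted p between 0.0575 and 0.159. Over all 31 members, 21 had a positive log2 fold change and the median was 0.71, against -0.02 over all genes, of which 50.3% were negative. Both green libraries lay over both centre ones for 13 members, against 30.6% of all genes, and below for 2, against 27.2%. At an unadjusted p under 0.05 there were 9 members higher and 0 lower, against 14.7% and 15.2% of all genes. That count of 9 was 3 without library 2 of the green border and 17 without library 2 of the centre. DESeq2 called 5 members higher (GSA2, HEME1, CHLH, CHLI1 and DVR) and 0 lower, where it called 8.23% of all genes higher and 11.2% lower.

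Of the 13 members above the centre in both border libraries, 10 belong to the early steps or the chelatase, and the others are DVR, PORC and HY1. In the common pathway HEMA1, GSA1, GSA2, HEMC, HEME1 and HEME2 did not overlap, and the median of the 10 members was 0.77. HEME1 had 154 and 194 CPM in the green border against 21.3 and 59.4 in the centre, a log2 fold change of 2.11 ± 0.60 (edgeR adjusted p = 0.0671). HEMA1 had 34.0 and 82.6 CPM in the centre, under both green libraries, and a log2 fold change of 1.86 ± 0.72. GSA2 had 297 and 253 against 80.5 and 96.8, at 1.63 ± 0.48 (adjusted p = 0.0708, edgeR). GSA1, HEMC and HEME2 had 49.8 and 73.8, 189 and 178, and 89.7 and 129.7 CPM in the centre. The genes of all 3 subunits of magnesium chelatase lay higher in both border libraries. CHLI1 had 1.51 ± 0.52, CHLI2 1.54 ± 0.60, CHLD 1.26 ± 0.50 and CHLH 2.06 ± 0.86, with edgeR adjusted p from 0.0989 to 0.148. In the centre CHLI1 had 97.9 and 109.9 CPM, CHLI2 33.7 and 10.6, and CHLD 53.6 and 59.2. PORC, at 125 and 70.7 CPM, lay below the green border at 0.87 ± 0.50 for the border over the centre. CHLI2 was the member called without library 1 of the centre, and HEME1 and DVR were those called without library 2 of the centre. Without library 1, which stood apart, the median of the members was 0.60 and 9 were negative.

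In the common pathway HEMB1, LIN2 and PPOX1 overlapped, with 72.7 and 189.5, 117 and 283, and 77.0 and 131 CPM in the centre. Several genes of later steps overlapped too. GUN4 had 58.8 and 123 CPM in the green border against 27.4 and 251 in the centre, CRD1 712 and 1515 against 382 and 1968, and PORB 447 and 1092 against 149.9 and 727. In each of these the centre libraries lay far apart, with library 2 the high one. CHLM had 135 and 239 against 216 and 311, also with overlap. CHLG lay the other way without overlap, with 191 and 238 CPM in the border against 706 and 307 in the centre (-1.24 ± 0.57, edgeR adjusted p = 0.181). FC1 did too, at -1.64 ± 0.78 (edgeR adjusted p = 0.195). Without library 1 of the centre, which stood apart, the values were -0.46 for CHLG and -0.59 for FC1. With all libraries in the fit the other haem genes differed less, at 0.80 for FC2, 0.51 for HY1 and -0.59 for HY2. Leaving out 1 library gave 0.33 to 1.77 for FC2, 0.29 to 0.93 for HY1 and -1.22 to 0.85 for HY2, so this order is not firm. FC2 had 36.1 and 13.1 CPM in the centre, HY1 23.2 and 35.2, and HY2 5.60 and 1.31. Of these HY1 alone did not overlap. CAO had 20.5 and 52.7, CHLP 368 and 868, and FLU 27.7 and 72.9 CPM in the centre, each overlapping the green border. The regulators GLK1 and GLK2 had -0.76 ± 0.73 and -1.41 ± 0.93, and both signs rest on library 2 of the centre: without it the values were 1.12 and 0.91.

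The difference between border and centre depends on the scaling. With library totals in place of TMM the median of all genes moved from -0.02 to 1.24 and that of the members from 0.71 to 1.97. Under that scale 17 members were called higher and 0 lower, where 34.1% of all genes were called higher and 1.60% lower. In the white border against the green border the same change moved the median of all genes from 0.02 to 0.56 and that of the members from -0.88 to -0.35, with 24 of 31 still negative. The mesophyll markers ran opposite to most members between border and centre, with all 5 negative and a median of -1.33 (0 called). Epidermis markers summed to 125.5 and 81.2 CPM in the centre, dividing cell markers to 6.13 and 2.47 and xylem markers to 29.5 and 17.7, all under the green border. Of the epidermis and dividing cell markers, 2 of 5 were called higher in the border in each list, ATML1 and PDF1 in the first and KN and CDKB2;1 in the second. Their part in the values of the members was not tested. The xylem marker IRX5 was called higher as well, a call lost in 6 of 17 alternatives; those of the other 4 markers were lost in 1 to 3. Phloem, guard cell and trichome markers had medians of 1.06, 0.89 and -0.34 with 0 called.

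Among the other genes of the pathway, edgeR called HEMF2, a relative of the coproporphyrinogen oxidase gene, higher in the border, with 13.3 and 9.03 CPM against 1.60 and 3.02 (2.26 ± 0.53, adjusted p = 0.045). The call of HEMF2 was lost in 9 of 17 alternatives, limma-voom among them, with adjusted p up to 0.183. Of the 11 tested, 7 were positive and the median was 0.40. Of the 8 other regulators 7 were positive with a median of 0.71, and GUN1, a plastid protein of retrograde signalling, was called higher with 146 and 158 CPM against 42.7 and 29.0 (2.08 ± 0.49, edgeR adjusted p = 0.045). The call of GUN1 was lost in 7 of 17, with adjusted p up to 0.189. Chlorophyll breakdown genes had a median of -0.32 with 7 of 9 negative and 0 called. ACD2, the red chlorophyll catabolite reductase, had -1.39 ± 0.45 and SGR2 had -2.66 ± 1.06. The value for SGR2 rests on few reads, with 3 and 2 counts in the green border and 2 and 12 in the centre.

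Ratios of paralogues within a library need no scale between libraries, and 8 pairs of paralogues were compared in this way. With 2 libraries against 2 the smallest exact permutation p is 0.33, so these are descriptions. The ratio of GSA1 to GSA2 per kilobase was 0.530 and 0.536 in the white border, 0.438 and 0.476 in the green border, and 0.593 and 0.729 in the centre. The ratio of HEME1 to HEME2 was 0.529 and 0.572 in the white border, 0.723 and 0.872 in the green border, and 0.213 and 0.411 in the centre. In both pairs the 3 groups did not overlap. The balance of the ferrochelatases split otherwise: FC1 per FC2 was 4.24 and 0.796 in the white border, 0.639 and 0.749 in the green border, and 3.74 and 3.47 in the centre. Both centre libraries held several times more FC1 per FC2 than the green border. The white border also lay above it in both libraries, 1 of them only slightly. CHLI1 was 2.67 to 9.54 times CHLI2 and PORB was 1.08 to 9.22 times PORC over the 6 libraries, with overlap between white and green borders in both.

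**Figure D4:**
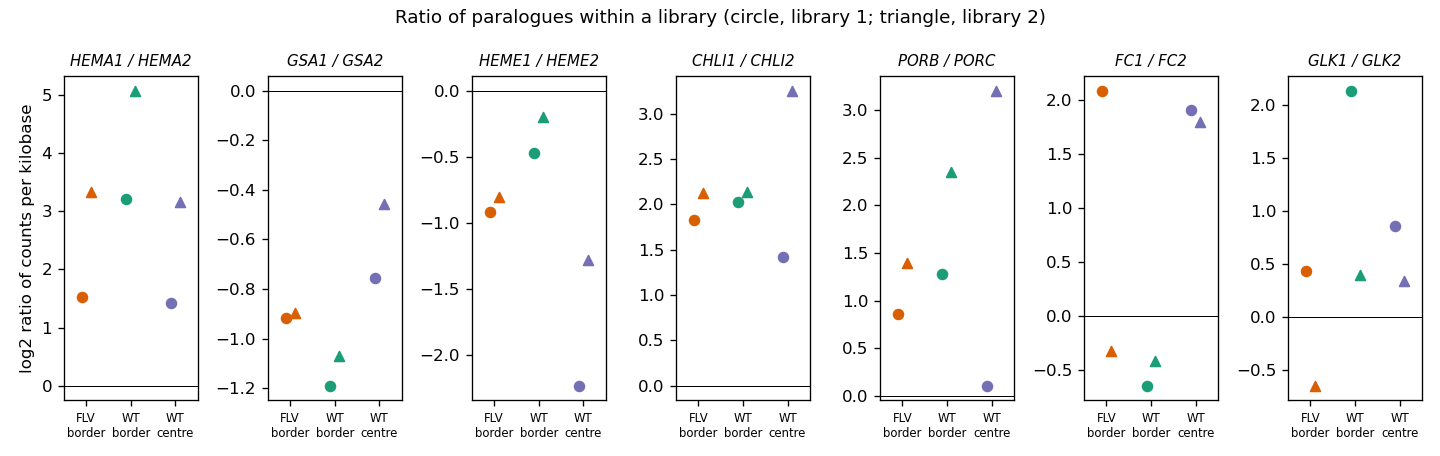
Log2 ratio of counts per kilobase of 7 pairs of paralogues in each library, by group, with a vertical scale for each pair and a line at 0 where the genes are equal. Circles are library 1 and triangles library 2; the groups separate for GSA1 over GSA2 and for HEME1 over HEME2, and the WT centre libraries lie above the WT border libraries for FC1 over FC2.

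By branch, the summed levels of the chlorophyll genes were 1692 and 4133 CPM in the white border, 4012 and 9144 in the green border, and 2539 and 5571 in the centre. The common pathway summed to 892 and 1138, 1719 and 1794, and 743 and 1233 CPM in the same order. The haem genes summed to 141 and 76.4, 139 and 96.4, and 211 and 98.8 CPM. Chlorophyll genes were therefore 11.97 and 54.1 times the haem genes in the white border, 28.8 and 94.8 times in the green border, and 12.01 and 56.4 times in the centre, ranges that overlap between all groups. In each group library 2 had the higher of the pair. These ratios set 14 genes against 4 and are not corrected for length. In CPM per kilobase, chlorophyll genes summed to 851 and 1923 (white border), 2069 and 4366 (green border) and 1501 and 3362 (centre). Haem genes summed to 77.0 and 49.2, 87.9 and 63.3, and 115 and 62.4 in the same order. In library 1 of the white border FC1 alone held 100.5 of the 141 CPM of the haem genes. Library 2 lay above library 1 in all 3 groups for 15 of 31 members, against 15.0% of all genes. It lay below in all 3 for 2 members, HEMA2 and FC1, against 3373 of 21852 genes. CHLH, CAO, CHLP, HEMA1 and PORB were among the 15. The labels do not say what the library number stands for.

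Per kilobase of gene model, which allows genes to be compared, CRD1, CHLP, CHLH and PORB were the most abundant members in the green border, at 477 and 1015 CPM per kilobase for CRD1 and 288 and 702 for PORB. HY2 was the least or the second least abundant member in every library, at 1.12 and 2.23 CPM per kilobase in the green border, and PORA stood at 0.736 and 25.0. In the white border CRD1 was at 158 and 415 CPM per kilobase. CRD1, CHLH and CHLP were the 3 most abundant members there in both libraries. How reads that map to more than 1 place were counted is not given in the sources used here, so levels of close paralogues such as PORA, PORB and PORC or CHLI1 and CHLI2 are less certain. The use of strand is not given either, so reads of an antisense or overlapping transcript cannot be told apart from those of the gene.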

How the data were processed

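Each library came with a deposited table of raw counts per gene model, written by the program sam2pkm per the file headers. TAIR10 is the genome build per the submitters' processing notes; the aligner, handling of multiply mapped reads and use of strand are not given in the sources used here. After 15 rRNA loci were left out, edgeR 4.0.16 (filterByExpr, TMM, glmQLFit with robust=TRUE, glmQLFTest) tested 21852 genes in 1 fit of all 6 libraries with a mean per group, on 3 residual degrees of freedom, with a common biological coefficient of variation of 0.456. Tests were two-sided with Benjamini-Hochberg adjustment across those genes, and an adjusted p under 0.05 is a call. The code was tested on simulated data with less spread than these libraries and no effect of library number. That checks the code and not the power of the test in these data. DESeq2 1.42.0, limma-voom 3.58.1, other scalings, no filter, an offset for model length, the 4 compared libraries alone, the library number as a block and each library left out were alternatives. Positions and promoters come from RefSeq on TAIR10.1, matched by locus. All members are named. Of the lists of other pathway genes, breakdown genes and greening regulators, the called genes are named, or else up to 2 by smallest p. Called markers are named too, but the marker lists did not otherwise follow this rule. The promoters shown are the 4 with the largest differences among members without overlap. Members and lists were chosen with earlier results of these data known. The protein sequences planned as a display are not used here.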

Additional observations from a re-analysis of the deposited data

How the results depend on the processing

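Of 17 alternatives per value, FLV border against WT border left 24 of 31 members with 1 sign in all, and 0 members were called in any; for WT border against WT centre 18 of 31 kept their sign. With library totals, FLV border against WT border gave GSA1 0.13, PPOX1 0.0034, CHLD 0.12, CHLM 0.45, a haem median of 0.37 and a members' median of -0.35. Leaving out 1 library gave -0.47 to 0.34 for CHLM, -0.57 to 1.68 for FC1, -0.32 to 1.09 for HY2 and -1.59 to 0.066 for GLK2. Genes called over the whole table (13) were 23 with no filter, 0 with the block, 194 with DESeq2, 2 with the length offset and 0 to 29 with 1 library left out.

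For WT border against WT centre, library totals gave HEMA2 1.16, LIN2 1.09, GUN4 0.76, CHLM 0.77, CRD1 1.27, HY2 0.555, GLK1 0.62, a haem median of 1.18, a regulator median of 0.62, a members' median of 1.97, 3 members below 0, 17 members called and 7798 genes called. No filter gave HEMA2 0.21, CRD1 0.14, a haem median of 0.24, 2055 genes and 2 members (HEME1 and DVR) called. limma-voom gave GUN4 0.055, CRD1 0.30, a haem median of 0.10 and 858 genes called. The length offset gave PPOX1 -0.053, 539 genes and 0 members called; DESeq2 gave 4167 and 5, and the 4 libraries alone 337 and 0. Leaving out 1 library gave -0.20 to 0.23 for HEMA2, -0.16 to 1.25 for HEMB1, -0.69 to 0.62 for LIN2, -1.41 to 1.82 for GUN4, -0.77 to 1.63 for CRD1, -1.51 to 6.18 for PORA, -0.22 to 1.995 for CAO, -0.18 to 1.45 for CHLP, -1.22 to 0.85 for HY2, -1.47 to 1.12 for GLK1 and -2.34 to 0.91 for GLK2. It gave medians of 0.60 to 1.25 for the members, -0.039 to 1.66 for the chlorophyll branch, -0.44 to 0.57 for haem and -1.47 to 1.12 for the regulators, with 5 to 11 members below 0, 0 to 2 members called and 1 to 3260 genes called. The lone library of a group was then assumed to vary like the others. The causes were not tested.

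The replicate block gave CRD1 0.24, 2 members called (HEME1 and DVR) and 1080 genes called between WT border and WT centre, and 0 members called between the borders. Same-numbered libraries deviated together with a correlation of 0.458 between the white and green borders. With the centre, the correlations were 0.0566 for the white border and 0.11 for the green border. These were not all over 0.1, so the numbers were not taken to pair the libraries. For the borders alone the value was above that mark, and the main fit does not allow for this. Leaving out 1 library moved the log2 fold change by over 1.5 times for 22 of 31 members between the borders and for 23 of 31 between WT border and WT centre. Depth limits the scarcest members: PORA had 3 counts in library 1 of WT centre and HY2 had 19 in library 2.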
